A study of Rattus norvegicus with 9 samples.

Results

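Some transcripts of PC12 cells stood at about their untreated level when the cells were given erastin, and were lower in all libraries of cells given erastin together with PQR NPs. These transcripts lower only under co-treatment are described here: 123 of the 41078 transcripts in the table. PC12 cells come from a rat adrenal pheochromocytoma, resemble neurons in part, and are labelled wild type here. The 3 groups of 3 libraries are untreated cells (control), cells given Erastin, and cells given Erastin + PQR NPs (co-treated), so that both treated groups share the erastin. PQR NPs are a nanodelivery system of unstated composition, doses and times are not given either, and no group analysed here received the particles without erastin, so an effect of the particles by themselves and one that needs erastin cannot be told apart.

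Erastin blocks the cystine/glutamate antiporter and so starves the cell of cystine, which is needed to make glutathione. Without glutathione, peroxidised lipids accumulate and an iron-dependent form of cell death, ferroptosis, can follow. The level of a transcript is set by how fast it is made and how fast it decays. In RNA from pooled cells, fewer cells that hold a transcript and less of it per cell cannot be told apart. Which genes the 123 belong to is not known here: the table lists Ensembl transcript IDs without gene names, and 0 of the IDs were found in the gene table used, so the labelled cell type was not checked against markers, and the transcripts are described by rank. Only the deepest and the most abundant member are printed by ID.

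The members were chosen on CPM, a transcript's counts scaled to a common library total. A member had a control mean of at least 5 CPM and a 9-library mean under 1000 CPM. Its erastin mean was within 0.3 log2 of its control mean, its co-treated mean was at least 0.5 log2 below both other means (0.5 CPM being added to each mean before the ratio), and its highest co-treated library was below its lowest control and erastin library. All 3 group differences therefore chose the members. They are given as a description, as are the test calls named for members below. Of 11114 transcripts with a control mean of 5 CPM or more, 11018 were under the upper limit and 3106 of those stood within 0.3 log2 of control with erastin. Of these 3106, 160 met the co-treated limit, and 123 (3.96%) did so without overlap between libraries. Among all 11114, every co-treated library was below every control and erastin library in 757 (6.81%).

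Depth was similar throughout, at 34772755 to 40826754 counts. Whether the 3 libraries of a group are separate cultures is not stated, so their spread may be technical. A count belongs to 1 transcript, and nothing states how reads shared by isoforms or near-identical copies were divided.

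Together the 123 made up 0.682%, 0.759% and 0.882% of the counts in the control libraries, 0.780%, 0.832% and 0.864% in the erastin libraries and 0.487%, 0.455% and 0.455% in the co-treated libraries. The group means were 0.774% ± 0.101, 0.825% ± 0.0421 and 0.466% ± 0.0185 (SD, n = 3 each). The co-treated libraries lay close together, while control replicate 1 was the lowest and control replicate 3 the highest of the other 6. Without the 10 most abundant members, the remaining 113 took 0.446% ± 0.0376 of the control counts and 0.467% ± 0.0135 of the erastin counts. Of the co-treated counts they took 0.270% ± 0.00430 (SD, n = 3 each). The direction of this difference was fixed by the rule, since every member is lower in every co-treated library.

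**Figure D1:**
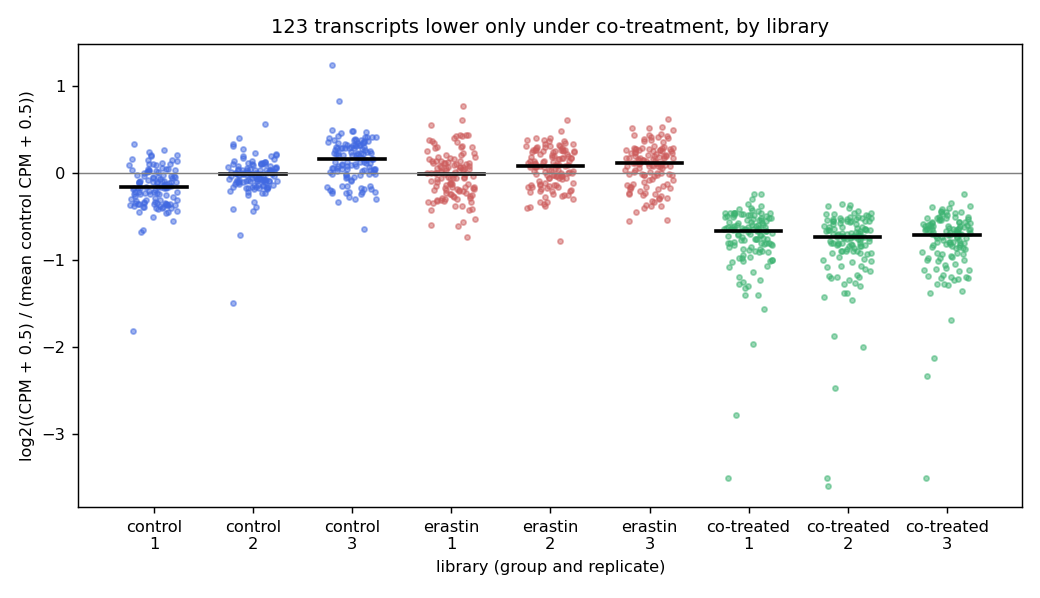
Level of each of the 123 members in each library, as log2 of its CPM over its mean control CPM (0.5 CPM added to both). Each point is 1 transcript and each black line the median of a library. The co-treated medians lie below the 6 others, and among the controls replicate 1 is lowest and replicate 3 highest.

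Most members were moderately lower. The median co-treated level was 0.597 of the control level (interquartile range 0.538 to 0.656) and 0.568 of the erastin level (0.522 to 0.623). The depth of the difference is measured here against whichever of control and erastin gave the smaller one. By this measure 46 members lay between 0.5 and 0.6 log2 below, 40 between 0.6 and 0.75, 21 between 0.75 and 1, and 16 at 1 log2 (2-fold) or more. The median over the 11114 transcripts with a control mean of 5 CPM or more was 0.00 log2 for co-treated over control and 0.15 log2 for co-treated over erastin, and that of the members was -0.72 and -0.77.

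**Figure D2:**
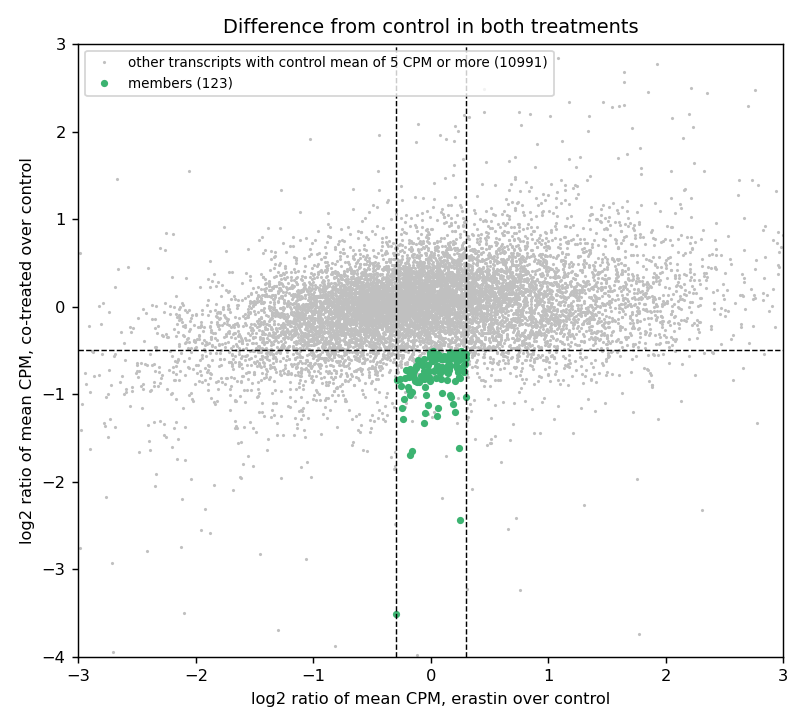
Log2 ratio of mean CPM with erastin over control (horizontal) and under co-treatment over control (vertical), 0.5 CPM added to each mean. Green points are the 123 members, grey points the other 10991 transcripts with a control mean of 5 CPM or more, and dashed lines the limits of 0.3 and 0.5 log2, with 114 transcripts outside the axes. The members form the lower edge of the central cloud, many of them close to the limit.

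The limits cut through a continuum. The 3 members closest inside the 0.5 limit stood at -0.503, -0.507 and -0.508 log2, and the 3 transcripts closest outside it, which met all else, at -0.499, -0.494 and -0.493 log2. One of those outside was more abundant than any member, with a mean level of 833 CPM in controls, 773 CPM in erastin libraries and 549 CPM in co-treated libraries. At the limit on erastin, the closest transcripts outside included one with a mean of 48.4 CPM in controls, 39.0 CPM in erastin libraries and 13.3 CPM in co-treated libraries, a deeper difference than most members had. At the lower limit on abundance, the closest member had a control mean of 5.04 CPM and the closest transcript outside 4.89 CPM.

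The members spanned a wide range of abundance, with control means from 5.04 to 587 CPM and a median of 35.3 CPM, against a median of 33.5 CPM over the 11114. In the tier from 5 to 10 CPM in controls there were 28 members, 6.59% of the 425 transcripts that stood within 0.3 log2 of control with erastin. From 10 to 100 CPM there were 75 (3.69% of 2035), and from 100 to 1000 CPM 20 (3.10% of 645). The median depths of the tiers were close, at -0.67, -0.67 and -0.65 log2. The limit of 0.5 log2 bounds these medians, and the 0.5 CPM added shrinks ratios most at low levels, so they do not show equal depth. Members 2-fold or more lower numbered 6 of 28, 7 of 75 and 3 of 20 in the 3 tiers.

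With erastin alone the members stood near control by construction. The erastin mean was above the control mean in 74 and below it in 49, with ratios from 0.795 to 1.25 and a median of 1.04. The libraries of the 2 groups overlapped in 117 of the 123. No such share is given for other transcripts near control with erastin. Whether this overlap is particular to the members was not tested. In 34 members the highest co-treated library was within 10% of the lowest library of the other groups, and in 5 it was at 0.5 of it or less. In those 34 the gap that separates the groups was narrow. No share among other transcripts is given for these counts either, and whether they are particular to the members was not tested.

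The deepest member, ENSRNOT00000089335, was at 1.12, 1.53 and 13.0 CPM in the control libraries, 5.19, 3.86 and 3.39 CPM in the erastin libraries and at 0 counts in all 3 co-treated libraries. It was the only member with no count in a whole group. Taking a floor of 3 counts per library, 0.0754 CPM on average, it was at least 69.2-fold lower than in controls and at least 55.0-fold lower than with erastin. Its control mean rests on replicate 3, and against the median control library the bound was 20.3-fold. The other control libraries lay under 5 CPM and below every erastin library, so its membership rests on replicate 3 as well. The member also stood almost at the limit on erastin, at -0.2995 log2 from control. It was also the least abundant of the 123 over control and erastin.

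The member with the second deepest difference was at 3.70, 3.63 and 11.4 CPM in controls, 7.16, 7.77 and 7.65 CPM with erastin and 0.484, 0.710 and 1.05 CPM under co-treatment. Here too control replicate 3 stood above the other controls, while the erastin libraries were close together at 10.1 times the co-treated mean. The third was at 10.05, 9.73 and 13.0 CPM in controls, 15.0, 11.6 and 12.3 CPM with erastin and 3.36, 2.35 and 3.95 CPM under co-treatment. The fourth was at 7.84, 8.38 and 10.2 CPM, then 6.67, 7.94 and 8.57 CPM, and then 1.88, 2.89 and 2.37 CPM in the same order of groups. In these the highest co-treated library was at 0.406 and 0.433 of the lowest other library, and the co-treated means were 3.39-fold and 3.70-fold below control.

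The fifth member was uneven under co-treatment, with 3.82, 0.0245 and 0.765 CPM against 4.90, 4.27 and 8.48 CPM in controls and 4.25, 6.49 and 4.92 CPM with erastin. Its co-treated replicate 1 lay only just below the lowest erastin library, at 0.898 of it, so the depth of its mean difference rests on co-treated replicates 2 and 3.

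The members from the sixth to the tenth were more abundant than the first 5. The sixth was at 72.6, 65.2 and 52.0 CPM in controls, 69.1, 56.2 and 56.5 CPM with erastin and 24.9, 24.0 and 25.7 CPM under co-treatment, 2.54-fold below control and 2.43-fold below erastin. The seventh was at 38.9, 44.8 and 38.3 CPM in controls, 46.0, 36.7 and 44.1 CPM with erastin and 16.2, 15.3 and 18.8 CPM under co-treatment. The eighth had means of 41.7 ± 3.52 CPM in controls, 48.1 ± 4.47 CPM with erastin and 17.9 ± 2.33 CPM under co-treatment (SD, n = 3 each). In these 3 members the control and erastin libraries overlapped, and the highest co-treated library was at 0.495, 0.511 and 0.525 of the lowest of them.

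The ninth was the fifth most abundant of all members, at 238, 283 and 395 CPM in controls, 264, 298 and 325 CPM with erastin and 130, 133 and 131 CPM under co-treatment. Its co-treated libraries differed by far less than its controls, of which replicate 1 was again lowest and replicate 3 highest. The tenth was at 23.6, 30.1 and 28.7 CPM in controls, 30.2, 31.3 and 24.4 CPM with erastin and 12.7, 11.8 and 11.8 CPM under co-treatment, 2.28-fold below control.

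**Figure D3:**
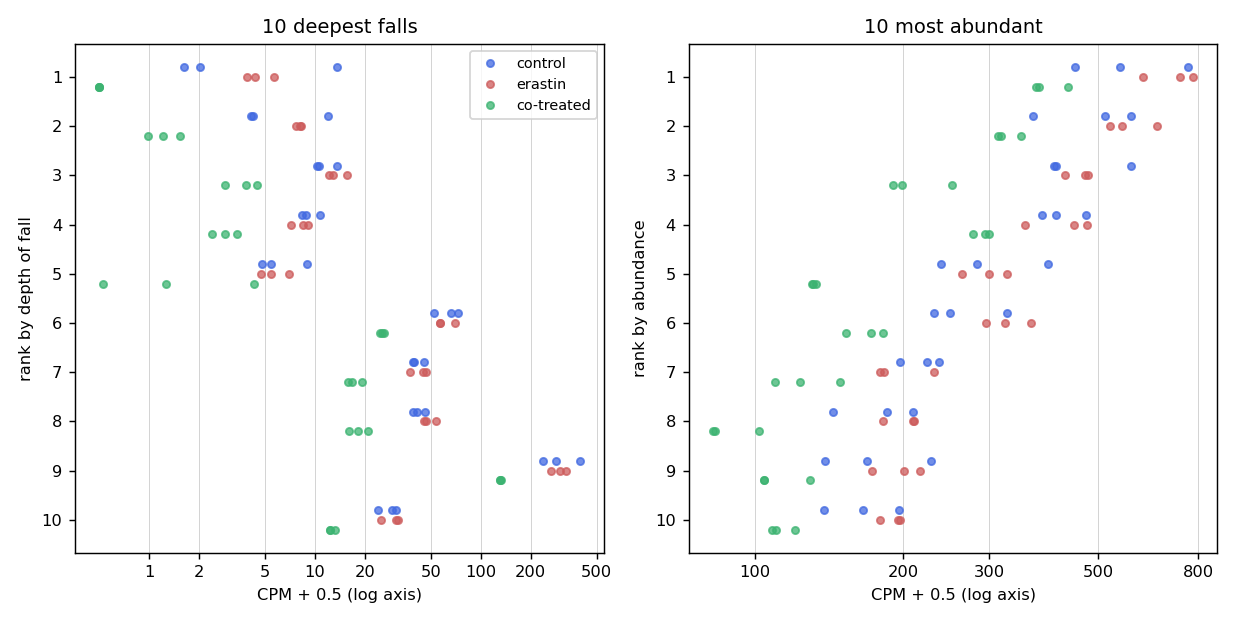
CPM (0.5 added, log axis) of the 10 deepest members (left, rows by rank of depth) and the 10 most abundant members (right, rows by rank of abundance) in each library. Each point is 1 library, blue for control, red for erastin and green for co-treated. The co-treated points lie to the left of the others in every row, and the gap is narrowest for the most abundant member, whose highest co-treated library is at 0.971 of its lowest control library.

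The most abundant member, ENSRNOT00000023132, was at 447, 553 and 762 CPM in controls, 616, 733 and 781 CPM with erastin and 434, 377 and 372 CPM under co-treatment. Its group means were 587 ± 160, 710 ± 84.8 and 395 ± 34.1 CPM (SD, n = 3 each). The highest co-treated library was at 0.971 of control replicate 1, so the groups were separated by little, and the co-treated mean was 1.49-fold below control and 1.80-fold below erastin. In edgeR's test it was called against control by little (adjusted p 0.0469, range over 15 alternatives 0.00462 to 0.158), and 13 of the 15 lost the call. The rule had used this difference in the same libraries, so the call is a description and no independent test of the member.

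The second most abundant had the same shape, with 368, 517 and 583 CPM in controls, 527, 558 and 657 CPM with erastin and 348, 311 and 316 CPM under co-treatment. The third was lower by more than 2-fold, at 405, 410 and 583 CPM in controls, 427, 476 and 470 CPM with erastin and 251, 199 and 191 CPM under co-treatment. In the fourth the difference was the smallest of the 10, at 409, 383 and 471 CPM, then 354, 474 and 445 CPM, and then 294, 299 and 277 CPM in the same order of groups. Of these 10, 3 were at least 2-fold lower than in both other groups.

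The sixth by abundance went from 268 ± 50.6 CPM in controls and 327 ± 34.5 CPM with erastin to 169 ± 14.7 CPM under co-treatment, 1.59-fold below control (SD, n = 3 each). The seventh, at 219 ± 20.2, 197 ± 28.9 and 127 ± 19.98 CPM, was one of 3 among these 10 whose erastin mean lay below the control mean (SD, n = 3 each). Means of the remaining 3 were 179 ± 32.995, 178 ± 45.6 and 166 ± 28.9 CPM in controls, and 88.3 ± 11.2, 112 ± 14.5 and 112 ± 6.85 CPM under co-treatment (SD, n = 3 each). Control replicate 1 was the lowest of the 6 control and erastin libraries in 8 of these 10 members. It was so in 50 of all 123 members (40.7%) and in 20.5% of the 11114 transcripts.

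Within the control group, replicate 3 was often the highest library and replicate 1 the lowest. Control replicate 3 was the highest control library in 81 of the 123 (65.9%), against 36.7% of the 11114 transcripts, and replicate 1 was the lowest in 71 (57.7%), against 32.8%. The median of replicate 3 over replicate 1 was 0.32 log2 in the members and -0.03 log2 over the 11114. Members also varied more: the median coefficient of variation over the control libraries was 17.4%, against 10.5% over the 11114. In the erastin group the medians were 12.5% and 10.7%, and in the co-treated group 10.7% and 8.04%. The rule itself read all of these libraries, and its part in this pattern was not tested.

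The 81 members highest in control replicate 3 stood at a median 0.841, 0.944 and 1.21 of their control mean in control replicates 1, 2 and 3, and at 0.959, 1.07 and 1.13 in erastin replicates 1, 2 and 3. In 25 members control replicate 3 was instead the lowest control library, and these stood at 1.09, 1.01 and 0.932 of their control mean in the erastin replicates. Under co-treatment the medians were 0.628, 0.583 and 0.598 in the first set and 0.594, 0.591 and 0.620 in the second. The rule put every co-treated mean at least 0.5 log2 below control, so similar levels here were partly built in. The split itself fixed where control replicate 3 stood among the controls of each set. Across the 123 members, which share their libraries, log2 of replicate 3 over replicate 1 in the control group and in the erastin group had a Pearson's r of 0.340 and a Spearman's rho of 0.499. Over the 11114 transcripts r was 0.104 and rho 0.379, so part of this relation was present over the whole table as well. Between the control and the co-treated group the members' r was -0.193 and rho -0.208, against 0.0148 and 0.0286 over the 11114. Between the erastin and the co-treated group the members' r was 0.206 and rho 0.193, against 0.106 and 0.222.

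Which control library serves as the reference therefore moves the size of the difference. The mean co-treated level was at least 0.5 log2 below control replicate 1 in 68 members, below replicate 2 in 104 and below replicate 3 in 112, with medians of -0.54, -0.68 and -0.88 log2. Against erastin replicates 1, 2 and 3 it was so in 91, 109 and 109 members. Over the 11114, the medians against the 3 control libraries were 0.02, 0.03 and -0.00 log2.

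The same measure was then read in libraries the choice had not used. In turn, the libraries of 1 replicate number were set aside in all 3 groups, the rule was applied to the remaining 6, and the chosen transcripts were read in the 3 libraries set aside. With replicate 2 set aside 143 transcripts were chosen, and in the libraries of replicate 2, 136 of them (95.1%) were lower under co-treatment than in both control and erastin. The same held for 28.7% of all 3091 transcripts within 0.3 log2 of control with erastin on the 6 choosing libraries. With replicate 3 set aside it was 93 of 106 (87.7%, against 29.6% of 2963). With replicate 1 set aside 233 were chosen, of which 168 (72.1%, against 25.4% of 3105) were lower.

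A difference of at least 0.5 log2 is a narrower condition than being lower, so its shares could not exceed those above. In the libraries set aside, a difference of at least 0.5 log2 from both other groups was met by 86 of 143 (60.1%) in replicate 2, by 56 of 106 (52.8%) in replicate 3 and by 47 of 233 (20.2%) in replicate 1, against 5.40%, 7.05% and 3.22% of all transcripts within 0.3 log2 of control with erastin. The median difference from control was -0.62 log2 in replicate 2 and -0.70 in replicate 3, but -0.19 in replicate 1. In the libraries that chose them, the same transcripts had medians of -0.72, -0.75 and -0.71 log2 in that order. Against erastin the medians in the libraries set aside were -0.81, -0.71 and -0.50 log2 for replicates 2, 3 and 1. In the choosing libraries they were -0.78, -0.77 and -0.81 log2. The median of erastin over control in the libraries set aside was 0.18, -0.01 and 0.29 log2 in the same order. In replicate 1 the typical chosen transcript thus stood almost at the limit of 0.3 above control with erastin. These are descriptions, since the labels do not tie libraries of equal number to each other.

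**Figure D4:**
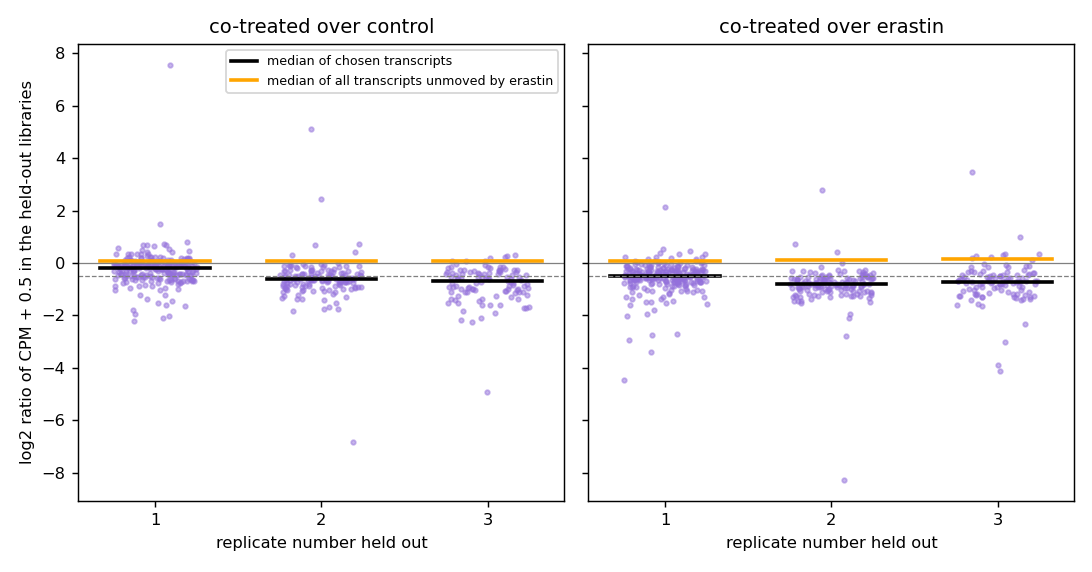
Log2 ratio of CPM (0.5 added) of the co-treated library over the control library (left) and over the erastin library (right) of the replicate number that was set aside, for the transcripts chosen on the other 6 libraries. Each point is 1 transcript, black lines are their medians, orange lines the medians of all transcripts within 0.3 log2 of control with erastin. The black medians lie below the orange ones in every turn, and nearest to 0 for replicate 1 against control.

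In edgeR's quasi-likelihood test over all 17123 tested transcripts, which all 123 members entered, 99 members were called lower in co-treated than in control cells at an adjusted p under 0.05, beside 9.21% of all tested transcripts. Against erastin 121 were called lower, beside 25.9%, and 99 were called lower in both, beside 2.94%. Between erastin and control 3 members were called, beside 52.9%. The rule used the same contrasts, so these counts say only how many members the test would also have picked. The 22 called lower against erastin alone were less abundant (median control level 10.6 CPM, against 40.7 CPM in the 99) and more variable between controls (median coefficient of variation 23.6%, against 15.8%). The fifth deepest member was one of 2 called in neither comparison. In tests on 8 libraries the 99 dropped to 63 when control replicate 2 was left out and to 62 for control replicate 3. They dropped to 59, 53 and 55 for co-treated replicates 1, 2 and 3, and to between 72 and 93 for any other library. Over all tested transcripts, those changed in either direction between co-treated and control fell as well. They went from 2895 to 1665 and 2032 without control replicates 2 and 3, and to 1853, 1325 and 1636 without co-treated replicates 1, 2 and 3.

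Membership itself depended on single libraries. With each of the 9 libraries left out in turn, the rule found 96 to 186 transcripts, and 41 of the 123 (33.3%) were found every time. Among these 41 were 6 of the 10 deepest and 4 of the 10 most abundant members. Leaving out control replicate 1 gave 186 transcripts, which held 108 of the 123, and leaving out control replicate 3 gave 96, which held 77. No other library left out took away as many members as control replicate 3 did. With library sizes scaled by TMM in place of total counts, the rule found 169 transcripts, which held 120 of the 123.

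**Figure D5:**
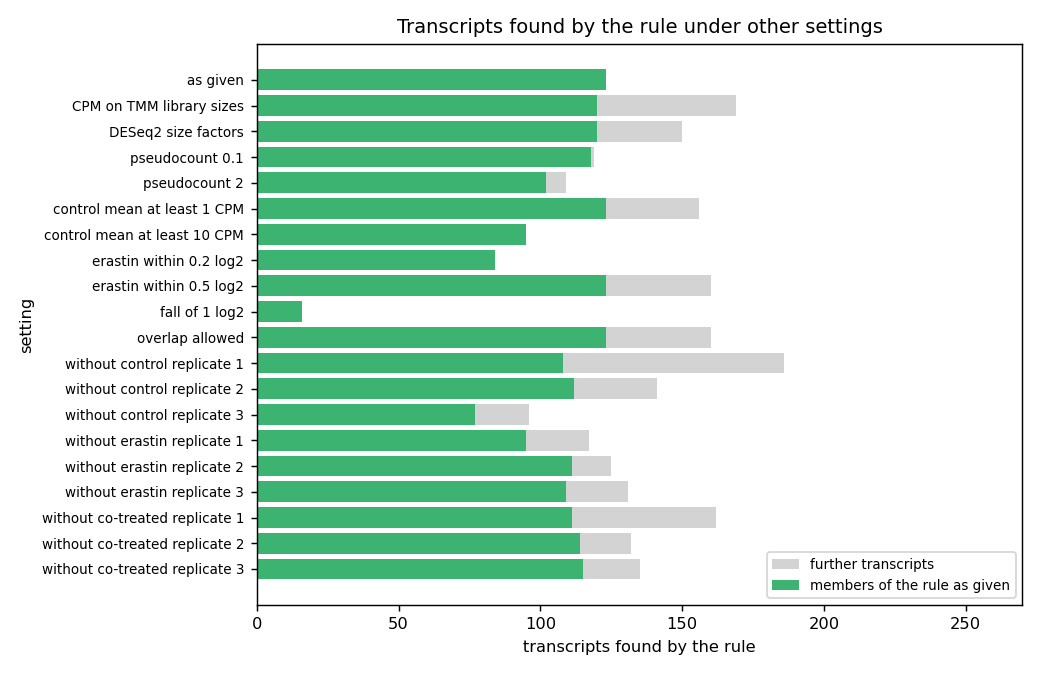
Number of transcripts found by the rule as given and under each other setting (bars), with the part shared with the 123 members in green and further transcripts in grey. Most members are found again under other scalings, while a limit of 1 log2 leaves 16 and leaving out control replicate 1 adds the most.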

How the data were processed

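RNA sequencing libraries of PC12 cells, 3 per group, were compared. Oligo(dT)-selected RNA was copied from random hexamers and read as paired ends, per the labels' protocols. The authors deposited raw counts per Ensembl transcript, not normalized, in whole numbers, per the file headers with 1 column per library. HISAT2 2.2.1 and the build Rnor_6.0 are named, per the submitters' processing notes. The counting program and strand setting are not stated in the sources used. Each column was matched to a library by the name in its title. Of 41078 rows, 15951 were at 0 in every library.

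From the counts, CPM on column totals gave the members. edgeR 4.0.16 (R 4.3.3, limma 3.58.1) tested all 9 libraries in 1 fit with TMM scaling, its own filter on low counts and Benjamini-Hochberg adjustment over 17123 transcripts. DESeq2 1.42.0, other scalings and filters, a replicate block and each library left out were alternatives. The rule and the test were checked on simulated data. In the simulation of the test, erastin means equalled control means and all transcripts had the same relative spread beyond counting error. The data differ from this in both respects. No 2 libraries of a group were alike within sampling noise (chi-square per degree of freedom 33.8 to 77.2). Deviations of same-numbered libraries from their group means had a Pearson's r of -0.0126 to 0.111, and the main fit did not take the numbers as pairs. By rank, replicate 3 over replicate 1 was more closely related between control and erastin (rho 0.379 over the 11114 transcripts). A difference shared by libraries of equal number is therefore not excluded, and counts with a replicate block are given below. Floors of 3 counts cover counting error only.

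The members and all rankings were chosen with earlier results of these data known. Transcripts were described if among the 10 deepest or the 10 most abundant members, and as none had a gene name, 2 are printed by ID. Gene lists and sequences could not be matched and were not used.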

Additional observations from a re-analysis of the deposited data

How the results depend on the processing

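Over the 5 scalings, filters and tests tried in place of edgeR with TMM, and the replicate block, the members called lower against both groups numbered 76 to 115 in place of 99, and without 1 library 53 to 93. The numbers of changed transcripts stayed within 1.5 times their values under those settings, and without 1 library were 1325 to 2988 (2895 with all) for co-treated against control, lowest when control replicate 2 (1665) or co-treated replicate 1, 2 or 3 (1853, 1325 and 1636) was left out, 7589 to 8978 (8764) for co-treated against erastin and 8139 to 8935 (9061) for erastin against control. With the replicate block 95 members were called, and 2723, 8541 and 8884 transcripts. The rule found 16 transcripts with a limit of 1 log2 in place of 0.5, and 84 to 169 under the other settings with all 9 libraries. Without 1 library it found 96 to 186. For the described members, 536 of 568 recomputed calls kept direction and side of the threshold, 31 were lost and 1 was gained. All 31 were calls against control, 13 of them of the most abundant member (adjusted p 0.0543 with the replicate block) and 7 each of 2 other members. DESeq2 gave the deepest member no adjusted p. The share of transcripts below both groups in the libraries set aside was 82.4% over the 3 turns together, and 72.1% to 95.1% by turn. In the pooled share a transcript counts once for each turn that chose it. This share was 85.2% on TMM library sizes and 82.5% with a pseudocount of 2, alternatives chosen after seeing the data. The deepest member had 42 to 497 counts in the control and erastin libraries.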

Other observations

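Rules of the same form, applied to each group in turn, found 231 transcripts higher only under co-treatment (with a co-treated mean of at least 5 CPM in place of the control mean), 7.36% of the 3138 of that abundance whose erastin and control means were alike. The 123 lower only there were 3.96% of 3106. For erastin there were 1561 lower (24.9% of 6265 with co-treated and control means alike) and 1445 higher (22.6% of 6383). For controls there were 205 lower (6.71% of 3057 with co-treated and erastin means alike) and 191 higher (6.31% of 3027). The limit of 5 CPM was set on the erastin mean for the 1445 and the 205, and on the control mean for the 1561 and the 191. The same 9 libraries give all these numbers, so they are not independent of each other, and they are given as counts with no test.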
